A study of Arabidopsis thaliana with 6 samples.

Results

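The genes described here encode proteins that protect plant cells from water loss and cold: *LEA4-5* (AT5G06760), *COR47* (AT1G20440) and *COR15A* (AT2G42540). They were taken by gene code from the array annotation, 1 probe set each, and are 3 of the 13286 genes that the annotation names by a single gene. Their transcript levels were measured in whole roots of *Arabidopsis thaliana* on 6 single-colour Affymetrix ATH1 arrays, 3 of *ninja-1* mutants and 3 of wild-type (WT) plants. NINJA is an adaptor protein through which the JAZ repressors of jasmonate signalling recruit a co-repressor, and the comparison asks what the loss of NINJA does to root transcripts.

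The *ninja-1* and WT plants were both in the Col-0 background, and both carried the *JAZ10pro-GUSPlus* (*JGP*) reporter, a promoter fusion that reports jasmonate responses. Seeds were kept for 2 d at 4°C, and seedlings then grew untreated for 5 d at 21°C with 14 h of light and 10 h of dark, so no array comes from dried or chilled plants. Each of the 3 biological replicates per genotype pooled 120 roots. The mutant is represented by 1 allele. The values are bulk measurements of the whole root, in which fewer cells of a type and less RNA per cell cannot be told apart. Of 10 markers listed for root cell types, the array annotation names a probe set for 1. *EXPA7*, an expansin of root hairs, had 8.84, 9.00 and 8.89 in *ninja-1* and 8.70, 8.87 and 8.72 in WT, so it was well above the floor on all 6 arrays. Markers of leaf and seed tissue were not analysed here.

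Plants lose cell water in drought, in salt and when ice forms outside the cell, and they answer with hydrophilic proteins that keep membranes and enzymes from collapsing or clumping. Many of these are late embryogenesis abundant (LEA) proteins, first known from drying seeds and also made in roots and leaves under stress. Their genes are switched on by the hormone abscisic acid through bZIP transcription factors, and by cold or dehydration through the CBF/DREB transcription factors.

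All values are log2 expression values that were background-corrected and quantile-normalized together by GCRMA, and differences are *ninja-1* minus WT on that scale. Array medians lay between 5.95 and 6.03, and correlations between pairs of arrays lay between 0.994 and 0.999. The lowest value the procedure gave was 2.11, called the floor here, and 26.5% to 27.0% of the probe sets on each array stood at it. A value at the floor carries no level. A gene passed the test when its Benjamini-Hochberg adjusted p from limma was under 0.05, over 22746 probe sets.

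*LEA4-5* fell in *ninja-1* roots, and it alone of the 3 genes passed the test. It encodes a group 4 LEA protein, a small and largely unstructured protein that accumulates in seeds and in water-stressed tissue and protects enzymes from drying in vitro. Its log2 values were 3.74, 3.72 and 3.74 in the *ninja-1* replicates, against 5.05, 5.17 and 5.08 in the WT replicates. The genotypes did not overlap: the highest *ninja-1* array was 1.32 below the lowest WT array, and the arrays of 1 genotype spanned at most 0.12. All 3 *ninja-1* values stayed above the floor, by 1.62 to 1.63. The mean was 3.73 ± 0.01 in *ninja-1* and 5.10 ± 0.06 in WT (SD, n = 3 each). The difference was −1.37 (SE 0.04, 95% interval −1.46 to −1.27), which is 2.58-fold lower, with an adjusted p of 0.00249 from limma. With the replicate number as a block, the difference was the same and the adjusted p was 0.0783.

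Of the 3 genes, 1 passed the test with a lower level, against 0.374% of all probe sets tested. With a fold of at least 2 required as well, *LEA4-5* was again the gene called, against 0.0484% of all probe sets. *LEA4-5* and *COR47* were the 2 of 3 genes whose *ninja-1* arrays all lay below every WT array, a pattern that 10.1% of all probe sets showed. The same 2 genes were lower at an unadjusted p under 0.05, against 7.23% of all probe sets. The genes were chosen with earlier results of these data known, so these shares give scale only.

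**Figure D1:**
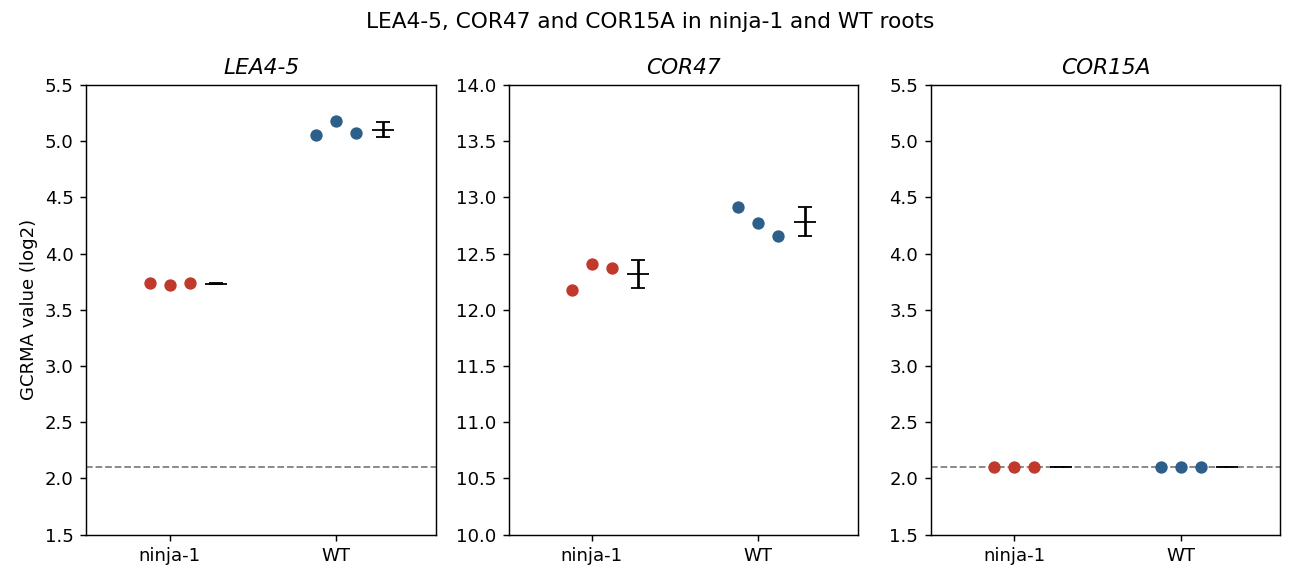
GCRMA log2 values (y axis) of *LEA4-5*, *COR47* and *COR15A* on each *ninja-1* array (red points, replicates 1 to 3 from left to right) and each WT array (blue points), with the mean and SD beside the points. All panels span 4 log2 units, and the dashed line is the floor of 2.11. The *LEA4-5* points lie near 3.74 in *ninja-1* and between 5.05 and 5.17 in WT, the *COR47* groups are closer but do not overlap, and *COR15A* lies on the floor throughout.

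The position of *LEA4-5* among transcripts of like level can be read from the 1426 probe sets whose WT mean was within 0.5 of its own. Their median difference was −0.02, and 8 of them (0.561%), *LEA4-5* included, were lower in *ninja-1* by at least as much. In 11.5% of them, every *ninja-1* array was below every WT array.

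The agreement among the *ninja-1* arrays of *LEA4-5* was closer than usual. Its SD in *ninja-1* was 0.0079, against a median of 0.137 for the 1426 probe sets of like level, and its SD of 0.06 in WT stood beside a median of 0.125. *ninja-1* replicates 1 and 3 held one identical value. Such repeats are frequent at low levels in this table: among probe sets with a mean between 4 and 5, 390 of 1172 (33.3%) held the same value on at least 2 arrays, against 4.40% of those with a mean of 6 or more. Part of the low spread of *LEA4-5* is thus a repeated number, and whether the spread in RNA was as small was not tested. How far the repeat limits the *ninja-1* level of *LEA4-5*, and with it the fold, was not tested either.

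*COR47* was lower in *ninja-1*, but did not pass the test. It encodes an acidic dehydrin, a LEA protein with conserved lysine-rich segments, whose transcript accumulates in cold, in drought and after abscisic acid. Its log2 values were 12.18, 12.41 and 12.37 in *ninja-1*, against 12.92, 12.77 and 12.66 in WT. The genotypes did not overlap, but the gap of 0.25 between them was about as wide as the span within each, which was 0.23 in *ninja-1* and 0.26 in WT. The mean was 12.32 ± 0.12 in *ninja-1* and 12.78 ± 0.13 in WT (SD, n = 3 each). The difference was −0.46 (SE 0.10, 95% interval −0.72 to −0.20), which is 1.38-fold lower, with an adjusted p of 0.161 from limma. When dim probe sets were left out and 14230 were tested, the same difference had an adjusted p of 0.0336 from limma, and 3.49% of the probe sets tested there passed with a lower level.

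*COR47* was abundant, and few probe sets of its level were lower in *ninja-1* by as much. Of the 279 probe sets whose WT mean was within 0.5 of its own, 3 (1.08%), *COR47* included, were lower in *ninja-1* by at least as much, and the median difference was −0.02. The pattern of every *ninja-1* array below every WT array was common at this level, in 55 of the 279 (19.7%). The SDs of *COR47*, 0.12 in *ninja-1* and 0.13 in WT, stood beside medians of 0.0736 and 0.0562 for these probe sets.

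On a linear scale the mean level of *LEA4-5* was 61.3% lower in *ninja-1*, and that of *COR47* 27.3% lower. The share for *LEA4-5* rests on a *ninja-1* level with a repeated value, and how far this limits it was not tested.

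*COR15A* was not measurable in these roots. It encodes a LEA protein that is imported into chloroplasts and stabilizes membranes during freezing, and it is a widely used marker of the cold response. Its value was 2.11 on all 3 *ninja-1* arrays and on all 3 WT arrays, the floor itself. The difference of 0 is therefore no measurement of equal levels: a fall could not have been seen, and a rise would have shown only once the signal left the floor. Of all probe sets tested, 5626 (24.7%) were likewise at the floor on all 6 arrays. Its close relative *COR15B*, which lies next to it in the genome, was at 2.13 on all 6 arrays.

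**Figure D2:**
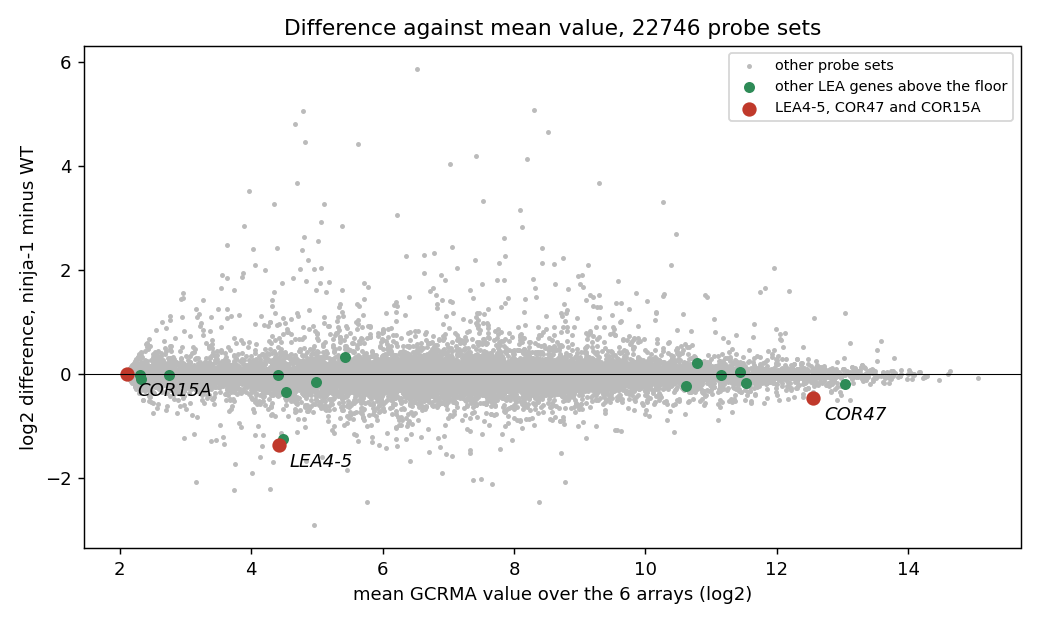
Difference in log2 value between *ninja-1* and WT (y axis) against the mean log2 value over the 6 arrays (x axis) for the 22746 probe sets tested (grey), with *LEA4-5*, *COR47* and *COR15A* in red and the other LEA genes above the floor in green. *LEA4-5* at −1.37 lies at the lower edge of its level, *COR47* at −0.46 lies at the lower edge of the abundant transcripts, and *COR15A* lies at the floor with a difference of 0.

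The LEA proteins of *Arabidopsis* form several sequence groups, and a list of 46 of their genes places the 3 genes among their relatives. The array annotation gave a probe set to 30 of the 46, the 3 genes included. Of these, 14 were at the floor on all 6 arrays and 16 were above it on at least 1. Over the 30 genes, 1 passed the test with a lower level (*LEA4-5*) and 0 with a higher one, and the median difference was 0. At an unadjusted p under 0.05, 3 of the 30 were lower (*LEA4-5*, *COR47* and *HIRD11*), where 7.23% of all probe sets were lower, and 1 was higher (AT2G46140), where 5.73% were higher. The same 3 genes had every *ninja-1* array below every WT array, against 10.1% of all probe sets, and AT2G46140 had every *ninja-1* array above, against 7.75% of all probe sets. Counts this near the shares over all probe sets are no result about the family. Among the 16 genes above the floor, 13 had a negative difference and the median was −0.12, beside 53.8% negative and a median of −0.01 for the 17120 probe sets above the floor. The 13 include *LEA4-5* and *COR47*. They also include AT4G21020, AT4G13230 and AT5G44310, which held one value on at least 4 arrays, so that few arrays set the sign.

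**Figure D3:**
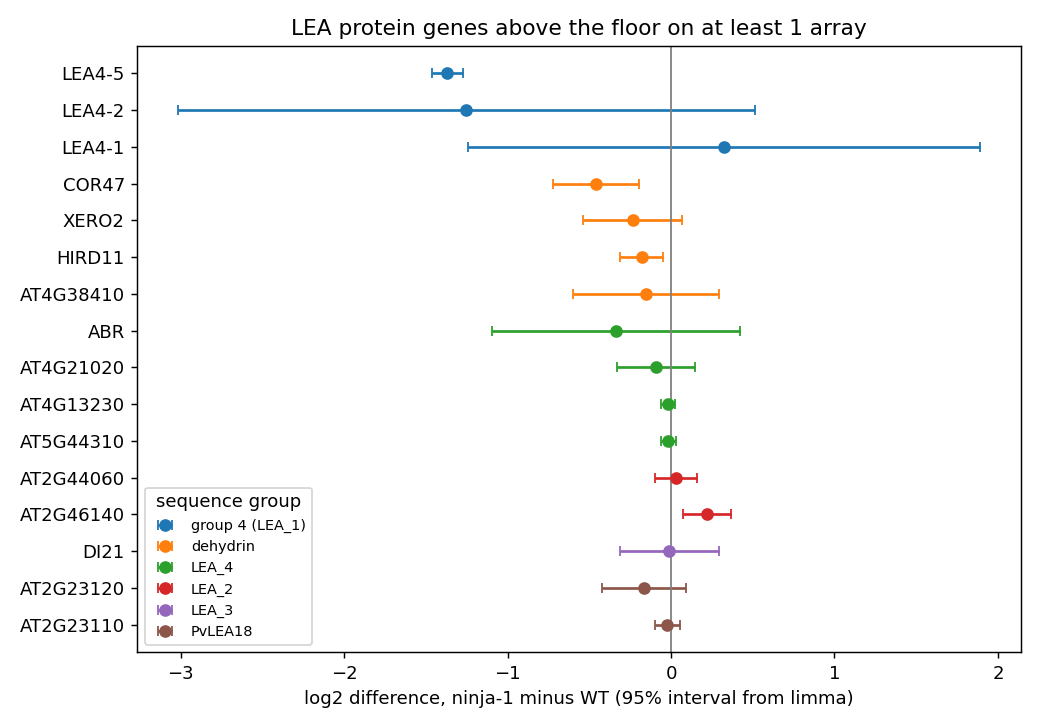
Difference in log2 value between *ninja-1* and WT (x axis, with 95% intervals from limma) for the 16 LEA genes above the floor on at least 1 array, coloured by sequence group. *LEA4-5* at −1.37 has a narrow interval, while its group 4 relatives *LEA4-2* and *LEA4-1* have wide intervals that cross 0.

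The nearest relatives of *LEA4-5* are the other group 4 genes, *LEA4-2* (AT2G35300) and *LEA4-1* (AT1G32560), whose proteins share its conserved amino-terminal part. *LEA4-2* had 4.22, 4.14 and 3.21 in *ninja-1*, against 5.18, 4.02 and 6.14 in WT. WT replicate 2 lay inside the *ninja-1* range, so the groups overlapped. The difference of −1.25 was close in size to that of *LEA4-5*, but its SE was 0.66 and its adjusted p from limma was 0.548. *LEA4-1* had 5.54, 5.73 and 5.53 in *ninja-1*, against 5.68, 4.07 and 6.06 in WT. Its WT arrays lay on both sides of the *ninja-1* arrays, and the difference was 0.33 (SE 0.58, adjusted p 0.986 from limma).

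The 2 relatives varied widely among WT roots, and *LEA4-5* did not. The SD in WT was 1.06 for *LEA4-2* and 1.06 for *LEA4-1*, against 0.06 for *LEA4-5*. The median WT SD was 0.0932 over the 14193 probe sets with a WT mean above 4. In *ninja-1* the SD was 0.56 for *LEA4-2* and 0.11 for *LEA4-1*, beside a median of 0.113 over the same probe sets. The wide spread of *LEA4-2* was thus not confined to WT. Only 4 of these 14193 had an SD of at least 1 in WT, a limit set after the values were seen, and *LEA4-2* and *LEA4-1* were the second and the third of them. The most variable was *ZAT10* (AT1G27730), a zinc-finger repressor induced by cold, drought and salt, with 7.11, 5.06 and 5.43 in WT. For *LEA4-2*, *LEA4-1* and *ZAT10*, WT replicate 2 was the lowest WT array. The highest was WT replicate 3 for *LEA4-2* and *LEA4-1*, and WT replicate 1 for *ZAT10*. The remaining probe set of the 4, to which the annotation gives no single gene, went another way. It had 5.43, 5.97 and 3.98 in WT, so replicate 2 was its highest WT array and replicate 3 its lowest. In *ninja-1*, *ZAT10* was steady at 6.34, 6.43 and 6.42, with a difference of 0.53 (SE 0.60, adjusted p 0.818 from limma). The values of *LEA4-5* did not follow the order of *LEA4-2* and *LEA4-1*: its highest WT array was replicate 2.

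Among dehydrins, the group of *COR47*, 6 genes were measured, 2 of which were at the floor throughout. The 4 above it, *COR47* included, all had a negative difference, and none passed the test. *HIRD11* (AT1G54410), a small histidine-rich dehydrin that binds metal ions, had 13.04, 12.91 and 12.88 in *ninja-1*, against 13.15, 13.10 and 13.11 in WT. Its groups did not overlap, with a difference of −0.18 (SE 0.05, adjusted p 0.243 from limma). *XERO2*, also called *LTI30*, a cold-induced dehydrin that binds membranes, had 10.48, 10.37 and 10.66 in *ninja-1*, against 10.61, 10.71 and 10.89 in WT. Its groups overlapped, and the difference was −0.24 (SE 0.11, adjusted p 0.506 from limma). AT4G38410 differed by −0.15 (adjusted p 0.812 from limma).

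**Figure D4:**
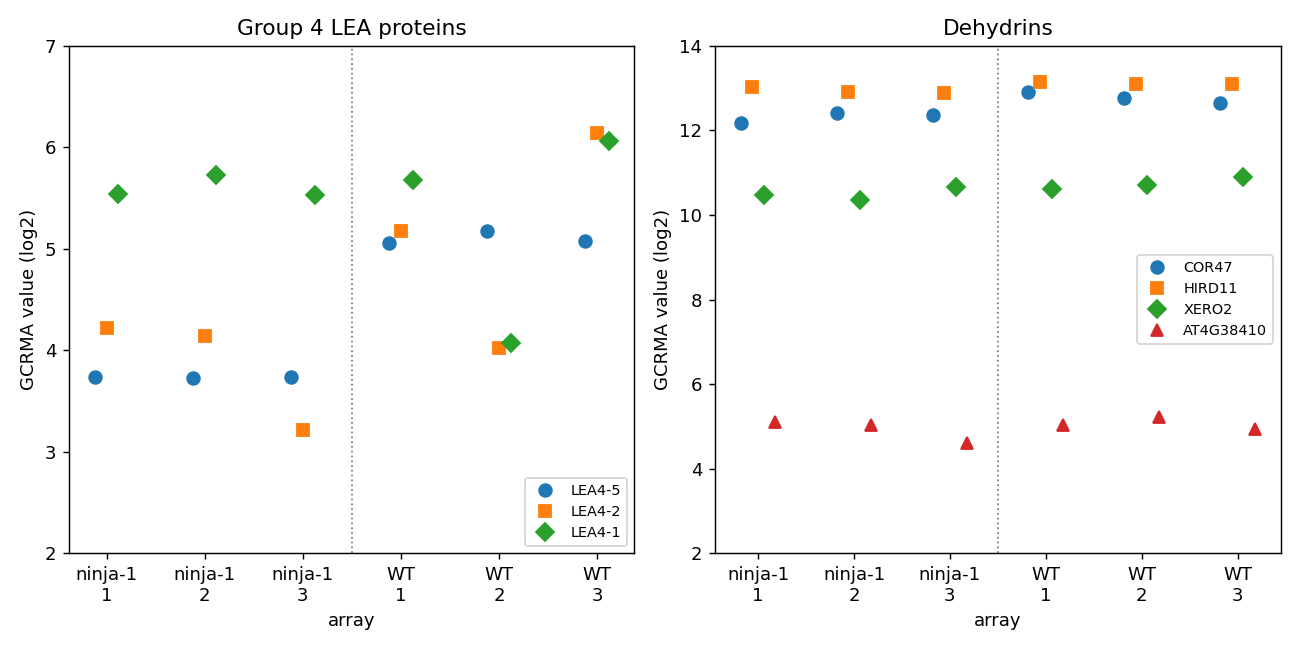
GCRMA log2 values (y axis) by array (x axis) of the group 4 LEA genes (left) and of the dehydrins above the floor (right), with the 3 *ninja-1* arrays left of the dotted line and the 3 WT arrays right of it. *LEA4-5* is steady within each genotype, *LEA4-2* and *LEA4-1* spread widely across the WT arrays from about 4 to about 6, and *COR47* stands lower on the *ninja-1* arrays.

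*COR15A* belongs to the largest LEA group on the list, called LEA_4 after its protein domain. Of its 11 measured genes, 7 were at the floor on all 6 arrays, *COR15A* and *COR15B* among them. The differences of the other 4 ranged from −0.34 to −0.02, and none passed the test. The largest was that of *ABR*, at −0.34 (SE 0.28, adjusted p 0.766 from limma). AT4G21020 differed by −0.09, and AT4G13230 and AT5G44310 each by −0.02. AT4G13230 held the single value 4.40 on 5 of 6 arrays and AT4G21020 the value 2.28 on 5 of 6, a repeat of the kind seen for *LEA4-5*.

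None of the remaining groups held a gene that passed the test. In the LEA_2 group, whose proteins are more folded than other LEA proteins, AT2G46140 had 10.92, 10.90 and 10.85 in *ninja-1*, against 10.78, 10.61 and 10.62 in WT. Every *ninja-1* array was above every WT array, with a difference of 0.22 (SE 0.06, adjusted p 0.218 from limma), a direction opposite to that of *LEA4-5* and *COR47*. The other LEA_2 gene, AT2G44060, differed by 0.03. *DI21*, named for its induction by drought, differed by −0.01. AT2G23120 differed by −0.17 (adjusted p 0.598 from limma) and AT2G23110 by −0.02. The 2 seed maturation proteins and the 2 genes of the AtM group were at the floor on all 6 arrays.

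A gene outside the list carries the LEA name in its annotation and moved the other way; it was picked after its values were seen. AT2G46150, a hydroxyproline-rich glycoprotein of the LEA family, averaged 7.97 ± 0.05 in *ninja-1* and 6.87 ± 0.08 in WT (SD, n = 3 each). It was 2.15-fold higher in *ninja-1*, with an adjusted p of 0.00765 from limma, and 0.492% of all probe sets were called higher by the same rule. Another gene outside the list that was looked up with it, AT2G42560, was at the floor on all 6 arrays.

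Few regulators of these genes could be followed, because the annotation used here names a single gene for 13436 probe sets and values of unnamed probe sets were not assigned to genes. Of 34 listed cold and dehydration genes, it names *ZAT10*, with the values above. Of 15 listed abscisic acid transcription factors, it names *EEL* (AT2G41070), a bZIP factor that acts on LEA genes in the embryo. It had 3.99, 4.34 and 3.92 in *ninja-1*, against 4.34, 4.46 and 4.46 in WT, and the difference was −0.33 (SE 0.13, adjusted p 0.407 from limma). *ninja-1* replicate 2 reached the lowest WT array, and the other *ninja-1* arrays were below it. The listed genes of abscisic acid synthesis, its receptors, and its phosphatases and kinases were not analysed here, and neither was *NINJA* itself.

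None of the genes with a named probe set beside *LEA4-5*, *COR47* and *COR15A* passed the test. In the gene order of the RefSeq TAIR10.1 annotation, the 3 genes on either side of *LEA4-5* included 2 with a named probe set, of which AT5G06770 differed by −0.05 (adjusted p 0.851 from limma) and AT5G06790 was near the floor. Beside *COR47*, 2 of 6 had one. AT1G20430 differed by −0.14 (adjusted p 0.771 from limma), and AT1G20410 by 0.20, with every *ninja-1* array above every WT array (adjusted p 0.432 from limma). Beside *COR15A*, 4 of 6 had one, of which *COR15B* and AT2G42560 were at or near the floor, AT2G42520 differed by 0.12 and *TBL39* by −0.12.

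The genes whose pattern over the 6 arrays was most like each of the 3 were found by Pearson's r among single-gene probe sets with a mean above 5. As the 6 arrays fall into 2 genotypes, r is given as a measure of likeness only. For *LEA4-5*, 103 of 6991 probe sets (1.47%) had an r above 0.95, led by AT4G01140 (r = 0.996), AT3G12540 (r = 0.995) and AT3G50640 (r = 0.995). Their own differences were smaller than that of *LEA4-5*: −0.53 for AT4G01140, −0.54 for AT3G12540 and −0.58 for AT3G50640. In all 103, every *ninja-1* array was below every WT array, against 10.1% of all probe sets. Selection by likeness to *LEA4-5*, which has this pattern itself, largely fixed that count, so it is no separate result. For *COR47*, 58 of 6990 (0.830%) had an r above 0.95, led by AT3G56290 (r = 0.995), AT1G10650 (r = 0.993) and AT1G79620 (r = 0.992), which differed by −0.58, −0.43 and −0.47. The adjusted p of these last 3 was 0.130, 0.141 and 0.272 from limma, so none passed the test, like *COR47* itself. *COR15A* has no pattern to compare.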

How the data were processed

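RNA from 5-day-old roots was hybridized to 6 single-colour ATH1 arrays, 3 *ninja-1* and 3 WT. The deposited table holds log2 values that the authors obtained with GCRMA; its version is not given in the sources used here, and depth has no counterpart on arrays, where the 3 arrays per genotype limit the precision. No background correction or normalization was added. The 64 control probe sets of 22810 were left out, and genotype was fitted with lmFit and eBayes of limma 3.58.1 in R 4.3.3, with Benjamini-Hochberg adjustment over 22746 probe sets. The fit was tested on simulated data. Values within 0.05 of the lowest value counted as at the floor. Probe sets were named from the platform annotation, where 13436 have 1 gene and 503 several. Named genes were the 3 genes, in each list those that passed (or the 2 with the smallest p) and the one with the highest mean, and the 3 with the highest r to *LEA4-5* and to *COR47*. The other LEA genes above the floor and 3 neighbours on each side were added later. The genes and lists were chosen with earlier results of these data known.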

Additional observations from a re-analysis of the deposited data

How the results depend on the processing

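*LEA4-5* kept its direction in 13 of 13 alternatives, but most of them could not have changed it. Several refit the same values, and leaving out 1 array cannot reverse groups that do not overlap. *LEA4-5* met the filter on dim probe sets only through its 3 WT arrays, so that alternative says nothing about it. Of the other 12 it passed in 11, with adjusted p from 0.000267 to 0.0783 (limma). The exception was the replicate block, under which its difference was −1.37 with an adjusted p of 0.0783, the count of list genes that passed was 0, and 0 of 22746 probe sets passed at all. The labels give only a shared number. Deviations of same-numbered samples correlated at 0.0962, 0.0446 and 0.157, and those of differently numbered samples at −0.221 to 0.166. *ninja-1* replicates 1 and 3 correlated best with the WT replicate of the same number, and *ninja-1* replicate 2 with WT replicate 1 (0.166). Whether the replicates were paired cannot be told from these values. *COR47* kept its direction in 13 of 13 alternatives, with the same limit, and passed in 1. That was the one that left out probe sets not above 4 on at least 3 arrays (difference −0.46, adjusted p 0.0336 from limma). There, 2 list genes passed, *LEA4-5* among them. Without any 1 replicate, *LEA4-5* differed by −1.39 to −1.33 (adjusted p 0.00443 to 0.0283) and *COR47* by −0.52 to −0.39 (adjusted p 0.242 to 0.373). Centring arrays on their medians gave −1.33 for *LEA4-5* and −0.43 for *COR47*. *COR15A* had no test where dim probe sets were left out or without moderation. Levels near the floor are limited by signal over background.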
